A study of Mus musculus with 9 samples.

Results

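The genes described here encode the kinases that act directly below class IA phosphatidylinositol 3-kinase (PI3K) and the FoxO transcription factors that these kinases control. The 9 members were chosen by symbol: Pdpk1, Akt1, Akt2, Sgk1, Sgk3, Gsk3b, Foxo1, Foxo3 and Foxo4. They are 9 of the 47643 genes in the count table, and all 9 were among the 18205 genes kept by the filter on low counts. Their transcripts were counted in long-term hematopoietic stem cells (LT-HSCs) of 3 genotypes, with 3 libraries for each genotype.

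Class IA PI3K makes the lipid PIP3 at the plasma membrane. PIP3 brings AKT to the membrane, where PDK1 (the product of Pdpk1) and mTORC2 phosphorylate it, and the same pair of enzymes activates the related SGK kinases. Active AKT and SGK phosphorylate FoxO factors, which leave the nucleus bound to 14-3-3 proteins, and AKT inhibits GSK3 by phosphorylation. In LT-HSCs, nuclear FoxO factors are known for keeping the cells quiescent and for holding reactive oxygen species low. Most of this control is on the proteins and their location, whereas the libraries measured only transcript levels.

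Donor bone marrow came from C57BL/6 mice of 3 genotypes. WT donors carried the Mx1-Cre transgene and intact PI3K genes. The δKO donors were Pik3ca lox/lox;Pik3cb lox/lox;Pik3cd-/- without Cre, so that only Pik3cd, which encodes p110δ, was lost, and it was lost from the germline on. The TKO donors had the same 3 alleles together with Mx1-Cre, which also excises Pik3ca and Pik3cb. Cre was therefore present in the WT and TKO groups and absent from the δKO group. The Mx1 promoter responds to interferon and is active throughout the hematopoietic system, so excision was not limited to stem cells. It is active in other tissues too, but in the transplant recipients described next only donor-derived cells carried Mx1-Cre and the lox alleles. Whole bone marrow was transplanted into lethally irradiated recipients, which all received 2 injections of 250 μg pIpC, an inducer of interferon, 48 hours apart. At 4 weeks after pIpC the marrow of the 7 recipients in a group was pooled, and donor-derived lineage-negative CD150+ Sca1+ cKit+ cells without CD48 or Flk2 were sorted as LT-HSCs. Nothing in the sources ties a library to separate animals, so p-values measure the spread between these libraries, which may be technical.

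Library totals ranged from 31300343 to 60386097 counts. Mitochondrial rRNA made up 14.4% to 16.8% of counts in WT, 9.63% to 17.1% in δKO and 6.88% to 15.7% in TKO libraries. The 9.63% was that of δKO replicate 1. Among the targeted genes, Pik3cd had 98.2 to 139 CPM (counts scaled to library size with TMM factors) in WT, 38.5 to 91.2 in δKO and 71.2 to 73.5 in TKO libraries. Pik3cb had 44.6 to 63.6 CPM in WT, 33.2 to 101 in δKO and 25.5 to 33.9 in TKO. Pik3ca had close means of 57.1, 59.2 and 60.2 CPM in WT, δKO and TKO. Its libraries ranged from 45.8 to 65 CPM in WT, 41.3 to 88.2 in δKO and 52.8 to 68 in TKO. Counts were summed over whole genes, so exons left outside a deletion could still contribute. Exons were not counted separately, so these sums do not show how complete the loss was, and its extent was not tested here. The paper checked excision of Pik3ca and Pik3cb by PCR on bone marrow DNA.

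The library δKO replicate 1 stood apart from the others. In it, 5 of the 9 members lay more than 1 log2 unit from the median of the other libraries, and so did 41.4% of the 10775 genes whose mean reached 5 CPM. The share was 28.4% in the δKO library numbered differently in the table than in the labels (the unnumbered δKO library) and at most 17.1% in the remaining libraries. Fewest genes were detected in δKO replicate 1 (18180), with 18500 in the unnumbered δKO library and 19703 to 22703 in the remaining libraries. Where a named log2 fold change that involves δKO moved by more than 1.5 times or changed sign without it, the edgeR value without it is given as well. The LT-HSC markers were present in all 9 libraries, with no marker of the 14 at 0, and their summed level was 1502 to 1878 CPM in WT, 1603 to 3475 in δKO and 2291 to 2716 in TKO. Markers of neutrophils and their precursors, such as Mpo, cells outside the sorted gate, summed to 5259 to 12283 CPM in WT, 286 to 12124 in δKO and 171 to 3247 in TKO. At most 1 of the 12 neutrophil markers was at 0 in a library. Flt3, which encodes the Flk2 that the sort excluded, had 27 to 115 CPM in WT, 7.06 to 55.2 in δKO and 12.4 to 39.3 in TKO. Cd48, which the sort also excluded, had 18.3 to 23.2 CPM in WT, 5.82 to 21.1 in δKO and 9.66 to 14 in TKO. Monocyte and macrophage markers summed to 148 to 410.1 CPM in WT, 87 to 335 in δKO and 54.8 to 244 in TKO. Lymphoid markers summed to at most 14.5 CPM in a library. The δKO limits of 3475 CPM for LT-HSC markers, 286 for neutrophil markers and 7.06 for Flt3 came from δKO replicate 1. In δKO replicate 2 and the unnumbered δKO library, these levels were 1603 and 1822, 4731 and 12124, and 55.2 and 50.8 CPM. The part of these cell-type differences in the values below was not tested. In such bulk samples, fewer cells of a type and less RNA per cell cannot be told apart.

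Promoter sequences from RefSeq (GRCm38.p6, 250 bases before to 50 after an annotated start) were found for 7 of the 9 members, at 17 starts, and no entry matched Sgk3 or Foxo4. They were searched on both strands for the FoxO core motif TGTTT (other strand AAACA), which 50.5% of all 32851 promoters hold, and for the longer consensus GTAAACA (other strand TGTTTAC), which contains the core and which 3.65% hold. The longer consensus occurred at 1 of the 17 starts, the first listed start of Akt1. In the sequences below, capitals mark the core motif on either strand. Akt1 is shown for its match to the consensus (chr12:112674835-112675134, minus strand), Akt2 because its libraries separated from WT as described below (chr7:27591302-27591601, plus strand), and Foxo1 because it had the largest fitted difference of the 9 (chr3:52268087-52268386, plus strand).
Akt1: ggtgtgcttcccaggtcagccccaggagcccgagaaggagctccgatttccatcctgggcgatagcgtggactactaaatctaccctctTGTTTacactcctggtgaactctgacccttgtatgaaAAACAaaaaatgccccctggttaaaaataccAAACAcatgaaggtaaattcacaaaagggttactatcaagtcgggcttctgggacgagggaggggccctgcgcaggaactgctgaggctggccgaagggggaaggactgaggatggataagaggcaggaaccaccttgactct
Akt2: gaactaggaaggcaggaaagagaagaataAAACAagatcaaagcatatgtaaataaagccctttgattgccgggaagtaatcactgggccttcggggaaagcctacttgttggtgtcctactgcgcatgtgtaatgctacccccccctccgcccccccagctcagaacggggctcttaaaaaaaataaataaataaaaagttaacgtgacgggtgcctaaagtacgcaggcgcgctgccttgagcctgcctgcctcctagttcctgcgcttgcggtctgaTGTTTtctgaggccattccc
Foxo1: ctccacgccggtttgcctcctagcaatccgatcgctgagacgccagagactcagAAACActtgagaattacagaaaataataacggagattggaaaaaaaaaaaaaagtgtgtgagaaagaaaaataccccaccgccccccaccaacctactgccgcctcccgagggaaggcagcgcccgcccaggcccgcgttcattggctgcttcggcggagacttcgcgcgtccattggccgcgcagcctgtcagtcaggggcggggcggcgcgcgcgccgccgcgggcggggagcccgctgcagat
The Akt1 window held 3 core matches, of which TGTTTac is the consensus, the Akt2 window held 2 and the Foxo1 window held 1. These windows had 8, 12 and 31 CpG dinucleotides, where the median over all promoters was 7. They do not stand for all starts of Akt1 and Akt2. The second listed Akt1 start had 42 CpG dinucleotides, more than 97% of promoters, and 0 core matches. The further Akt2 starts had 0, 5 and 2 CpG dinucleotides and 2, 0 and 7 core matches. A match is a description of the letters and not of binding.

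None of the 9 members differed between any pair of genotypes at an adjusted p under 0.05. By the quasi-likelihood test of edgeR, Benjamini-Hochberg adjusted over all genes, 0 of 9 were called in TKO against WT (0.00549% of all genes tested), 0 of 9 in TKO against δKO (0% of all genes) and 0 of 9 in δKO against WT (0.00549%). DESeq2 also called 0 of 9 in each comparison, while it called 0.649%, 2.98% and 1.06% of all genes. It gave no p for Foxo1 in any comparison and so could not call it. At an unadjusted edgeR p under 0.05, 0 members passed in TKO against WT (4.19% of all genes), 1 in TKO against δKO (Foxo1, lower in TKO, 10.2% of all genes) and 2 in δKO against WT (Akt2 and Foxo1, higher in δKO, 7.01%). The common biological coefficient of variation was 0.805. The median log2 fold change of the members was 0.1 in TKO against WT, where that of all genes was 0.017. It was -0.33 against -0.055 in TKO against δKO, and 0.41 against 0.046 in δKO against WT. Leaving out δKO replicate 1 turned the members' median in TKO against δKO to 0.099 (0.073 over all genes) and lowered that in δKO against WT to 0.23 (-0.046 over all genes). Overlap between groups is given gene by gene below, and 0 of 9 members separated TKO from δKO without overlap (11.7% of all genes). The 3 comparisons share libraries in pairs and are not independent of each other.

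**Figure D1:**
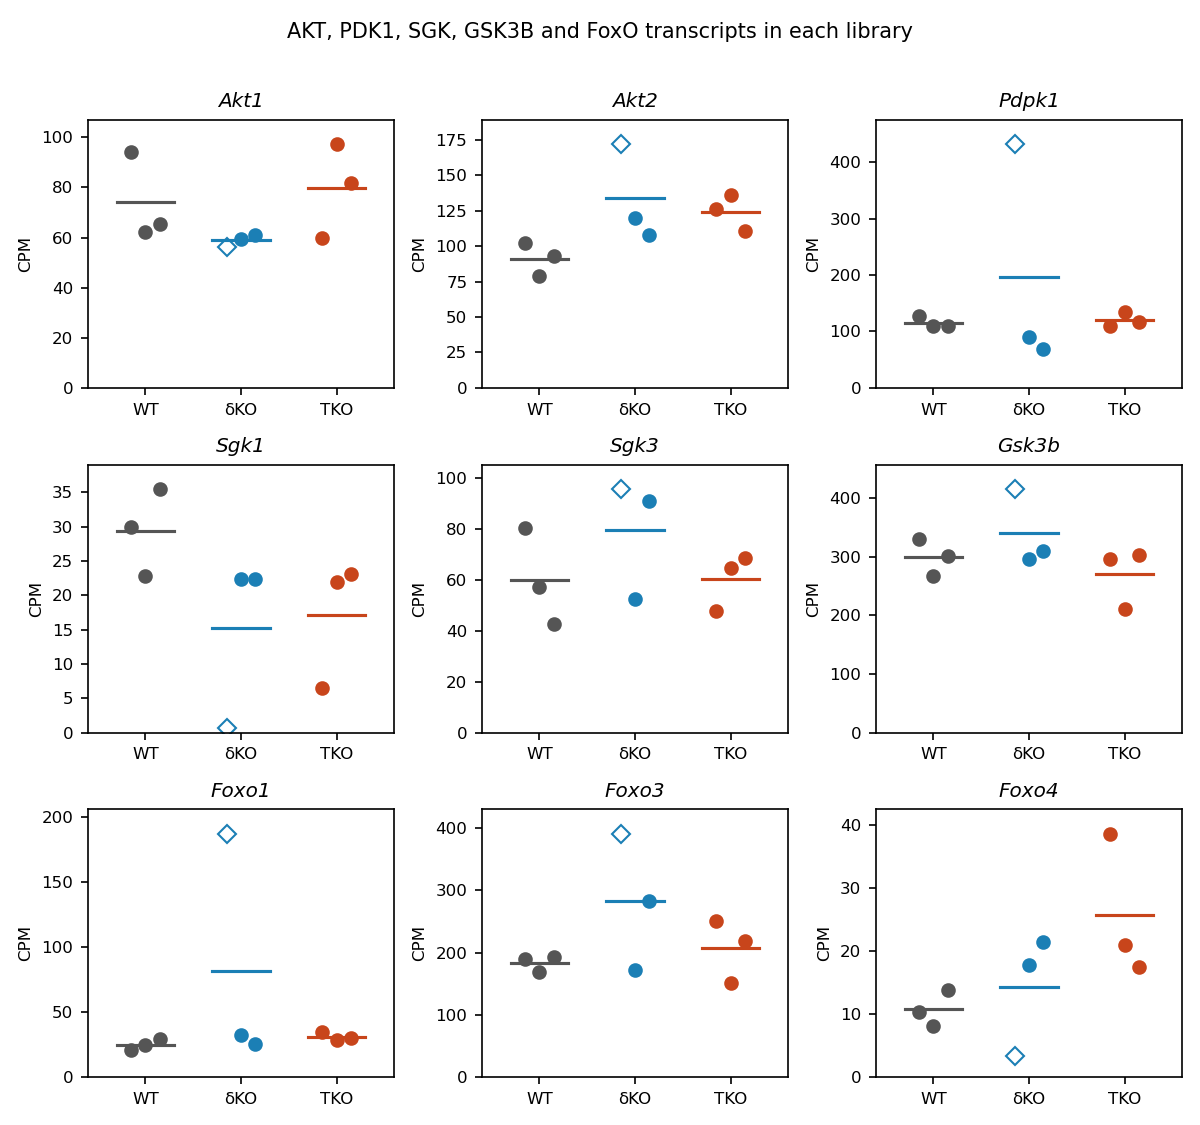
Level of each of the 9 members in each library, in CPM on a linear axis that starts at 0, by genotype (WT grey, δKO blue, TKO red). Each point is 1 library, the line is the mean of 3 libraries, and the open diamond is δKO replicate 1, which holds the highest value of 6 members (Akt2, Pdpk1, Sgk3, Gsk3b, Foxo1 and Foxo3) and the lowest of 3 (Akt1, Sgk1 and Foxo4).

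PDK1, the kinase that phosphorylates AKT and SGK in the activation loop, is encoded by Pdpk1. Its level was 128, 109 and 109 CPM in WT replicates 1 to 3, 109, 134 and 117 CPM in TKO replicates 1 to 3, and 432, 89.8 and 68.7 CPM in δKO replicate 1, δKO replicate 2 and the unnumbered δKO library. WT and TKO overlapped closely, and δKO held both the highest library and the 2 lowest. The TKO mean was 119.9 ± 12.6 CPM and the WT mean 115 ± 10.6 CPM (SD, n = 3), a log2 fold change of 0.055 (SE 0.543). In δKO against WT the log2 fold change was 0.77 (SE 0.547, edgeR adjusted p = 0.771) with all libraries and -0.54 without δKO replicate 1. In TKO against δKO it was -0.71 (SE 0.546, edgeR adjusted p = 0.669), and 0.59 without that library (edgeR adjusted p = 0.376). The direction of both differences thus rested on 1 library.

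Akt1 encodes the AKT kinase that is expressed most widely among tissues. It had 94.2, 62.4 and 65.6 CPM in WT, 59.7, 97.3 and 81.8 CPM in TKO, and 56.2, 59.5 and 60.9 CPM in δKO, in the library order used for Pdpk1. All 3 δKO libraries lay below all 3 WT libraries, a pattern that 7.39% of all genes showed in that direction, and TKO overlapped with both. The δKO mean of 58.9 ± 2.43 CPM compared with 74.1 ± 17.5 in WT and 79.6 ± 18.9 in TKO (SD, n = 3). On the log2 scale the fold change was -0.33 (SE 0.282) in δKO against WT, 0.44 (SE 0.282) in TKO against δKO and 0.1 (SE 0.281) in TKO against WT, with edgeR adjusted p of 0.811, 0.609 and 1. In TKO against WT the value fell to -0.0097 without WT replicate 2 and to -0.069 without TKO replicate 2. In δKO against WT it was -0.12 without WT replicate 1, which held the highest WT level, and in TKO against δKO it was 0.26 without TKO replicate 2.

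Akt2, whose product is best known for its part in insulin-stimulated glucose uptake, was the member that set WT apart from both other genotypes. It had 102, 79 and 92.8 CPM in WT, 172, 120 and 108 CPM in δKO, and 126, 136 and 111 CPM in TKO. All 6 δKO and TKO libraries lay above all 3 WT libraries, which 0.84% of all genes did. As single comparisons, TKO lay above WT without overlap (6.88% of all genes in that direction) and so did δKO (4.13%), while δKO and TKO overlapped. The mean was 91.2 ± 11.4 CPM for WT, 134 ± 34.1 for δKO and 124 ± 12.5 for TKO (SD, n = 3). Against WT, the log2 fold change was 0.44 in TKO (SE 0.251, edgeR adjusted p = 1) and 0.55 in δKO (SE 0.251, edgeR adjusted p = 0.699). Without δKO replicate 1 the δKO difference was 0.33 (edgeR adjusted p = 0.809), and over all alternatives the TKO difference stayed between 0.35 and 0.53. TKO and δKO differed by -0.11 (SE 0.25), which became 0.11 without δKO replicate 1 and 0.045 with upper-quartile factors.

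Sgk1 encodes a kinase whose transcript is induced within a short time by glucocorticoids, serum and cell stress. It had 29.9, 22.8 and 35.5 CPM in WT, 0.718, 22.4 and 22.4 CPM in δKO, and 6.56, 21.9 and 23.1 CPM in TKO. The 3 δKO libraries lay below the 3 WT libraries (7.39% of all genes), by a margin of under 1 CPM for 2 of them, and TKO overlapped with WT by 1 library. The transcript spanned a 49.5-fold range over the 9 libraries, and its SD of log2 CPM within genotypes (1.74) was larger than that of 95.1% of genes whose mean reached 5 CPM. The log2 fold change was -0.78 (SE 0.88) in TKO against WT and -0.95 (SE 0.883) in δKO against WT, with edgeR adjusted p of 1 and 0.828. Without δKO replicate 1 the second was -0.39, and without TKO replicate 1 the first was -0.39. TKO against δKO gave 0.18 (SE 0.876), and -0.39 without δKO replicate 1. Immediate early genes, which respond to handling of cells, summed to 11299 to 21071 CPM in WT, 9705 to 18597 in δKO and 9824 to 18320.4 in TKO, with 0 of 16 at 0 in any library.

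Sgk3, which encodes the SGK kinase that binds endosomal phosphoinositide through a PX domain, had 80.2, 57.2 and 42.6 CPM in WT, 95.7, 52.4 and 90.9 CPM in δKO and 47.8, 64.6 and 68.7 CPM in TKO. The 3 groups overlapped. WT and TKO had nearly the same mean, 60 ± 19 and 60.4 ± 11 CPM (SD, n = 3), and the log2 fold change of 0.008 (SE 0.333) took either sign when 1 library was left out. In δKO the mean was 79.6 ± 23.7 CPM, a log2 fold change of 0.41 against WT (SE 0.334, edgeR adjusted p = 0.803), which was 0.25 without δKO replicate 1. Sgk2, the third SGK gene, had 0 to 0.474 CPM and did not pass the filter.

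Gsk3b, which encodes a kinase that AKT holds inactive and that marks β-catenin and glycogen synthase, was the most abundant member in WT per kilobase of exon. It had 331, 268 and 302 CPM in WT, 416, 296 and 310 CPM in δKO and 296, 211 and 304 CPM in TKO. The groups overlapped in each comparison. Log2 fold changes were -0.15 (SE 0.233) in TKO against WT, -0.33 (SE 0.233) in TKO against δKO and 0.18 (SE 0.233) in δKO against WT. The last 2 were -0.17 and 0.015 without δKO replicate 1. In TKO against WT the value was -0.0032 without TKO replicate 2, the lowest of the 9 libraries, and -0.24 without TKO replicate 3. Its paralogue Gsk3a had 51.6, 38.5 and 37 CPM in WT, 21.3, 31.3 and 48.8 CPM in δKO and 42.7, 41.3 and 31.1 CPM in TKO. Gsk3a shares 28.3% of its exon length with the antisense gene 9130221H12Rik, and since the counting was not stated to use strand, reads of the pair may not have been told apart. Gsk3b, Akt2 and Akt1 had SDs of log2 CPM within genotypes of 0.25, 0.24 and 0.28, where the median gene had 0.56.

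Foxo1 had 20.7, 24.5 and 29.4 CPM in WT, 187, 32.5 and 25.9 CPM in δKO and 34.9, 28.5 and 30.6 CPM in TKO. A single library, δKO replicate 1, was far above the remaining 8, which lay between 20.7 and 34.9 CPM. The fitted log2 fold change of 1.71 in δKO against WT (SE 0.629, edgeR adjusted p = 0.699) was 0.23 without that library. TKO against δKO gave -1.38 (SE 0.623, edgeR adjusted p = 0.486), and 0.099 without it. DESeq2 gave no p for Foxo1 in the fit of all 9 libraries because it treated 1 count as an outlier. In TKO against WT the log2 fold change was 0.33 (SE 0.613), and the groups overlapped. It ranged from 0.21 to 0.47 when 1 library was left out. Foxo1 shares 7.8% of its exon length with the antisense gene Gm20402, which had 0 counts in all 9 libraries.

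Foxo3, the FoxO factor known for sustaining the quiescence and self-renewal of adult stem cells, was the most abundant FoxO transcript in each library. It had 189, 169 and 193 CPM in WT, 390.4, 172 and 283 CPM in δKO and 251, 150.5 and 219 CPM in TKO. The groups overlapped, and 2 of 3 libraries in δKO and 2 of 3 in TKO lay above all of WT. The log2 fold change was 0.17 (SE 0.303) in TKO against WT and 0.62 (SE 0.304, edgeR adjusted p = 0.699) in δKO against WT. The first was 0.0051 without TKO replicate 1 and 0.35 without TKO replicate 2, and the second fell to 0.31 without δKO replicate 1. TKO against δKO gave -0.45 (SE 0.303), and -0.14 without that library.

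Foxo4 had the largest difference between TKO and WT among the members. It had 10.4, 8.14 and 13.8 CPM in WT, 3.43, 17.8 and 21.5 CPM in δKO and 38.6, 21 and 17.5 CPM in TKO. The 3 TKO libraries lay above the 3 WT libraries (6.88% of all genes), and δKO held the lowest library of all together with 2 that lay above WT. The mean was 10.8 ± 2.86 CPM for WT and 25.7 ± 11.3 for TKO (SD, n = 3), a 2.38-fold difference and a log2 fold change of 1.25 (SE 0.642, edgeR adjusted p = 1). Without δKO replicate 1, which belongs to neither group but enters the shared estimate of spread, the log2 fold change was still 1.25 with a smaller SE of 0.413 (edgeR adjusted p = 0.481). DESeq2 on the WT and TKO libraries alone gave an adjusted p of 0.0606. Leaving out TKO replicate 1 lowered the log2 fold change to 0.83. In δKO against WT the value was 0.4 (SE 0.634), 0.87 without δKO replicate 1 and -0.018 without the unnumbered δKO library. TKO against δKO gave 0.85 (SE 0.637), and 0.38 without δKO replicate 1. Foxo6, the fourth FoxO gene, had 0 to 1.36 CPM.

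**Figure D2:**
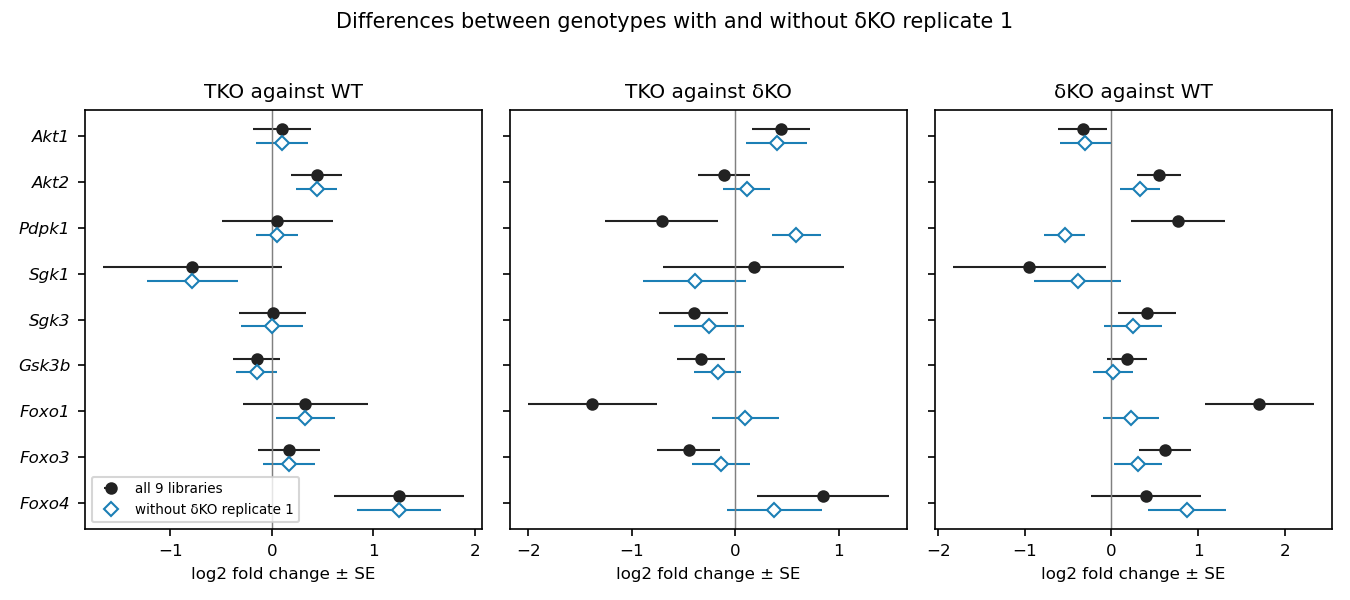
Log2 fold change of each member in each of the 3 comparisons, with bars of 1 SE from edgeR's quasi-likelihood fit. Filled black circles used all 9 libraries and open blue diamonds left out δKO replicate 1, without which Pdpk1 changes sign in both comparisons with δKO (from -0.71 to 0.59 and from 0.77 to -0.54) and Foxo1 falls from 1.71 to 0.23 in δKO against WT.

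Levels of different genes were compared as CPM per kilobase of exon. The length was the union of all annotated exons of a gene, which can exceed the length of the transcripts present. The order between genes depends on that choice. In WT the order was Gsk3b (30.5 ± 3.17), Foxo3 (24.3 ± 1.69), Akt1 (18.1 ± 4.28), Gsk3a (14.6 ± 2.76), Akt2 (12.8 ± 1.6) and Pdpk1 (10.6 ± 0.968), followed by Sgk1 (6 ± 1.3), Sgk3 (4.19 ± 1.33), Foxo4 (3.1 ± 0.821) and Foxo1 (2.87 ± 0.507), each in CPM per kilobase (SD, n = 3). Gsk3b lay above Foxo3 without overlap, and Pdpk1 above Sgk1. Neighbours from Foxo3 to Pdpk1 overlapped, and so did those from Sgk1 to Foxo1. In TKO the first places were held by Gsk3b (27.5 ± 5.26) and Foxo3 (27.3 ± 6.76), whose ranges overlapped, and Foxo4 (7.37 ± 3.25) stood above Sgk3 (4.22 ± 0.772), Foxo1 (3.62 ± 0.373) and Sgk1 (3.5 ± 1.88) without overlap.

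**Figure D3:**
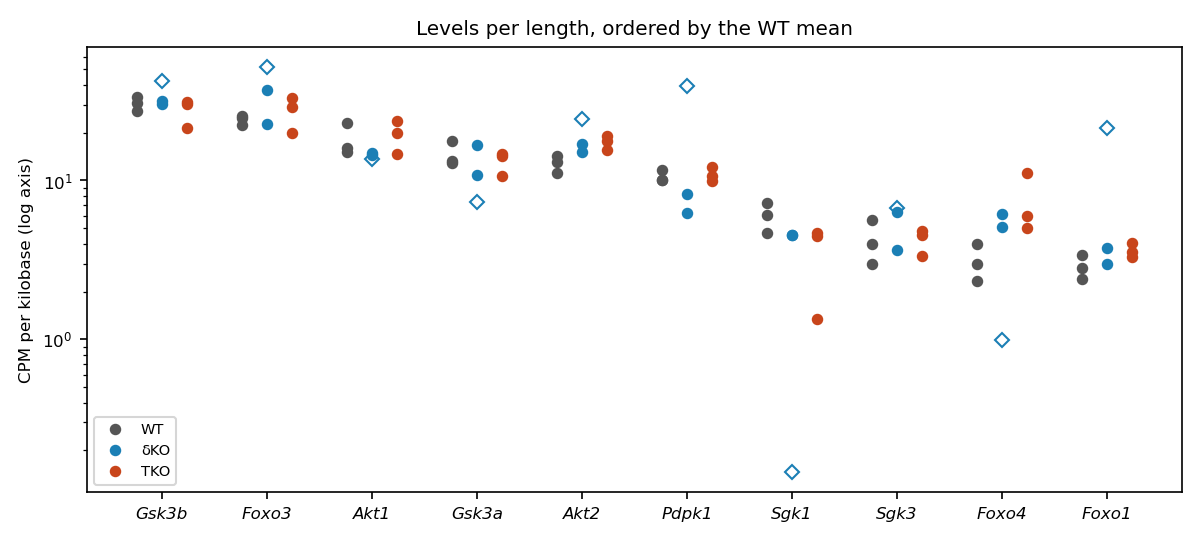
CPM per kilobase of exon (log axis) of the members and of the paralogue Gsk3a in each library, ordered by the WT mean from Gsk3b (30.5) to Foxo1 (2.87). Each point is 1 library, coloured by genotype (WT grey, δKO blue, TKO red), and the open diamond is δKO replicate 1, whose Sgk1 level of 0.146 is the lowest value plotted.

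Within families, levels were also expressed as the share of each paralogue in the summed CPM per kilobase, in which the scaling factor of a library cancels. Foxo3 made up 80.2 ± 2.57% of FoxO transcripts for WT, 73.9 ± 5.62% for δKO and 70.9 ± 5.04% for TKO (SD, n = 3). Foxo4 made up 9.87%, 8.47% and 12% in the WT libraries and 22.7%, 20.6% and 13.3% in the TKO libraries, so the groups did not overlap. The nearest values were 12% and 13.3%, and how often other gene families separate in this way was not computed. An exact permutation test of 3 against 3 libraries cannot go below p = 0.1, and no p was computed for these shares. In δKO the Foxo4 share was 1.33%, 16.2% and 13.3%. Foxo1 made up 9.47 ± 1.39% in WT and 9.64 ± 1.53% in TKO, and 29.1% in δKO replicate 1.

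Sgk1 took 58.6 ± 10.6% of the SGK family in WT, 33.2 ± 27.7% in δKO and 42.6 ± 12.1% in TKO, with Sgk3 taking nearly all the rest. The 3 TKO values (28.6%, 49.7% and 49.5%) lay below the 3 WT values (52.1%, 52.9% and 70.9%). The margin was narrow, and how often other gene families separate in this way was not computed. Gsk3b took 67.8 ± 2.65% of the GSK3 pair in WT and 67.2 ± 7.09% in TKO, and 85.2% in δKO replicate 1.

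**Figure D4:**
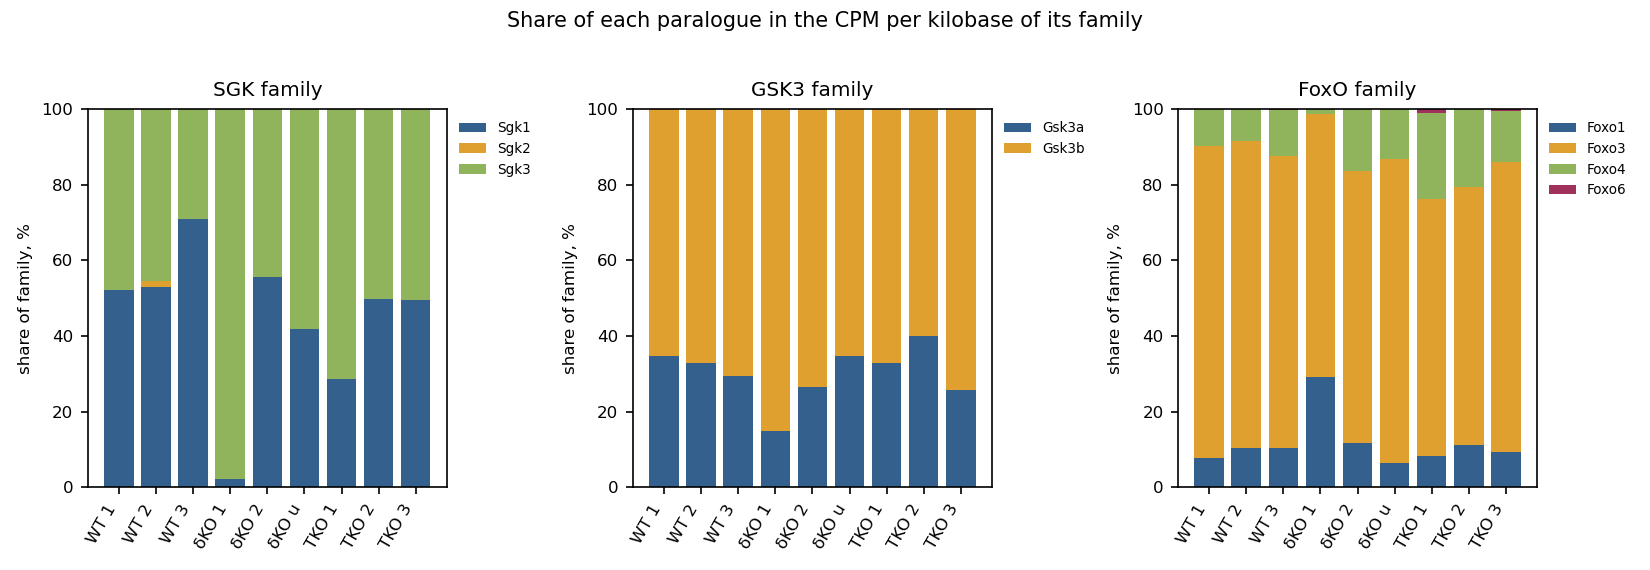
Share (percent) of each paralogue in the summed CPM per kilobase of its family, in each of the 9 libraries, where the number is the replicate and u marks the unnumbered δKO library. Foxo3 fills most of each FoxO bar, Foxo4 takes 8.47% to 12% in WT and 13.3% to 22.7% in TKO, and Sgk1 falls to 2.14% of the SGK bar in δKO replicate 1.

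The regulators and substrates of the same kinases showed no call by edgeR either, in lists of the pathway's other genes. One list held genes tied to AKT activation, though not each is an established activator (mTORC2 subunits, HSP90 with its partner CDC37, TCL1 proteins and kinases such as PKN2). Of these, 10 of 11 were tested, and 0 of 10 had an adjusted p under 0.05 in any comparison by edgeR or by DESeq2 on all 9 libraries. At an unadjusted edgeR p under 0.05, 0 passed in TKO against WT (4.19% of all genes) and 1 in TKO against δKO (10.2% of all genes), Hsp90aa1, which encodes the stress-inducible chaperone HSP90α that stabilises AKT. It had 691, 635 and 534 CPM in WT, 585, 712 and 1140.4 CPM in δKO and 420.1, 500.5 and 490.3 CPM in TKO. The TKO libraries lay below both other groups, as in 1.69% of all genes, with a log2 fold change of -0.79 against δKO (SE 0.26, edgeR adjusted p = 0.465). It was -0.47 without the unnumbered δKO library, and without δKO replicate 1 edgeR gave -0.98 with an adjusted p of 0.241. DESeq2 without δKO replicate 1, an alternative chosen after seeing the data that called 894 of all genes in this comparison, gave -1 with an adjusted p of 0.0253. Its value against WT was -0.4 (SE 0.258). Pkn2 gave 0.44 (SE 0.317) in TKO against WT and 0.59 (SE 0.318) in TKO against δKO.

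Among 14 genes that restrain the pathway (PHLPP and PP2A phosphatases, Them4, Tribbles proteins and axins), 0 were called by edgeR or by DESeq2 on all 9 libraries, a fit in which Them4 had no adjusted p in any comparison. At an unadjusted edgeR p under 0.05, 1 was lower in TKO against WT (4.19% of all genes passed in either direction), 1 was higher and 2 were lower in TKO against δKO (10.2%), and 2 were higher and 1 was lower in δKO against WT (7.01%). Ppp2cb, a catalytic subunit of the PP2A phosphatase that acts on AKT, had 52.9, 49.7 and 37.8 CPM in WT, 51, 41.3 and 44 CPM in δKO and 23.5, 25 and 32.6 CPM in TKO. TKO lay below the other groups without overlap, which 1.69% of all genes did (log2 fold change against WT -0.79, SE 0.304, edgeR adjusted p = 1). Ppp2r1b, a scaffold subunit of PP2A, gave -0.72 in TKO against δKO (SE 0.262, edgeR adjusted p = 0.465), with TKO at 55.6 ± 3.42 CPM and δKO at 91.6 ± 15.6 (SD, n = 3).

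Axin1, the scaffold on which GSK3 meets β-catenin, was lowest in δKO. It had 43.5, 29.7 and 45.2 CPM in WT, 25.4, 20.8 and 12 CPM in δKO and 37, 33.5 and 42.4 CPM in TKO. The δKO libraries lay below both other groups, as in 2.54% of all genes, with log2 fold changes of -1.03 in δKO against WT (SE 0.372, edgeR adjusted p = 0.699) and 0.96 in TKO against δKO (SE 0.371, edgeR adjusted p = 0.465). Without δKO replicate 1, edgeR gave adjusted p of 0.782 and 0.296 for these, and DESeq2, an alternative chosen after seeing the data that called 160 and 894 of all genes, gave 0.0493 and 0.0236. Them4, whose product binds and restrains AKT, was low, with 1.11, 1.01 and 2.08 CPM in WT, 5.39, 6.34 and 13 CPM in δKO and 11.9, 1.69 and 1.4 CPM in TKO. Its difference in δKO against WT was 2.56 (SE 0.992, edgeR adjusted p = 0.699), and DESeq2 on those 2 groups gave an adjusted p of 0.00509.

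Of 16 substrates and effectors, 0 were called by edgeR, and DESeq2 on all 9 libraries called 1, Gys1, in TKO against δKO (2.98% of all genes). At an unadjusted edgeR p under 0.05, 1 was lower in TKO against WT (4.19% of all genes in either direction), 3 were lower in TKO against δKO (10.2%) and 1 was higher in δKO against WT (7.01%). Gys1 encodes glycogen synthase, which GSK3 inhibits. It had 52.3, 26.2 and 30.1 CPM in WT, 97.7, 20.5 and 67.9 CPM in δKO and 9.87, 15.5 and 19.9 CPM in TKO. The TKO libraries were the 3 lowest of the 9, a pattern in 1.69% of all genes. The log2 fold change was -2.04 in TKO against δKO (SE 0.543, edgeR adjusted p = 0.465, DESeq2 adjusted p = 0.028) and -1.26 in TKO against WT (SE 0.531, edgeR adjusted p = 1). The DESeq2 call in TKO against δKO was lost on those 2 groups alone (adjusted p = 0.084) and without δKO replicate 1 (log2 fold change -1.58, adjusted p = 0.0839). Mcl1, an anti-apoptotic BCL2 relative that GSK3 marks for degradation, gave -0.56 in TKO against δKO (SE 0.231, edgeR adjusted p = 0.465). Ndrg2, a substrate of SGK1 and AKT, gave 0.84 in TKO against WT (SE 0.392). In δKO against WT, Ctnnb1, which encodes β-catenin, gave 0.58 (SE 0.263) and Rps6kb1, which encodes the S6 kinase, gave -0.43 (SE 0.263). These were 0.33 and -0.27 without δKO replicate 1.

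For the proteins that move, modify or retain FoxO factors, 17 genes were tested and 0 were called by edgeR or by DESeq2 on all 9 libraries. At an unadjusted edgeR p under 0.05, 0 passed in TKO against WT (4.19% of all genes), 1 was lower in TKO against δKO (10.2%) and 1 was higher in δKO against WT (7.01%), and both were Prmt1, which encodes a methyltransferase that modifies FOXO1 and so blocks its phosphorylation by AKT. Prmt1 had 91.5, 123 and 116 CPM in WT, 359, 181 and 135 CPM in δKO and 129.8, 111 and 85.5 CPM in TKO. All δKO libraries lay above the others, as in 1.31% of all genes, and the log2 fold change against WT ranged from 0.52, without δKO replicate 1, to 1.29 when 1 library was left out. Stk3, which encodes the MST2 kinase, had 21.9, 28.4 and 29.2 CPM in WT and 39.6, 53.7 and 41.7 CPM in TKO, without overlap (6.88% of all genes in that direction, log2 fold change 0.76, SE 0.362, edgeR adjusted p = 1). Its relative Stk4 gave 0.29 (SE 0.222) in δKO against WT and 0.16 without δKO replicate 1. Xpo1, the exportin that carries FoxO out of the nucleus, gave -0.27 (SE 0.283) in TKO against WT, -0.15 without TKO replicate 1, and -0.52 (SE 0.283) in TKO against δKO, which was -0.22 without δKO replicate 1.

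FoxO target genes had differences of both signs. Of 25 listed, 24 were tested and 0 were called by edgeR or by DESeq2 on all 9 libraries. Bnip3 had no adjusted p in that DESeq2 fit in any comparison, so DESeq2 could not call it. In TKO against WT, 15 had a log2 fold change above 0 and 9 below, with a median of 0.15 against 0.017 over all genes. At an unadjusted edgeR p under 0.05, 2 were higher and 1 was lower in TKO against WT (4.19% of all genes in either direction), 1 was higher and 3 were lower in TKO against δKO (10.2%), and 2 were higher and 0 were lower in δKO against WT (7.01%). Irs2, the insulin receptor substrate that FoxO factors induce when insulin signaling is low, had 52, 37.9 and 69.6 CPM in WT, 78.3, 65.1 and 117 CPM in δKO and 147, 93.1 and 98.5 CPM in TKO. The TKO libraries lay above the WT libraries (6.88% of all genes). The TKO mean was 113 ± 29.7 CPM and the WT mean 53.2 ± 15.9 (SD, n = 3), a log2 fold change of 1.09 (SE 0.331, edgeR adjusted p = 1), and DESeq2 on these 2 groups gave an adjusted p of 0.03. When 1 library was left out it ranged from 0.85 to 1.33.

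Rbl2, which encodes the pocket protein p130 of quiescent cells, had 103, 96.5 and 93.5 CPM in WT, 146, 125 and 173 CPM in δKO and 109.6, 77.9 and 91 CPM in TKO. The δKO libraries were the 3 highest (1.31% of all genes), with log2 fold changes of 0.6 in δKO against WT (SE 0.237, edgeR adjusted p = 0.699) and -0.67 in TKO against δKO (SE 0.238, edgeR adjusted p = 0.465). Bcl6, a transcriptional repressor, had 10.1, 10.3 and 28.8 CPM in δKO and 2.51, 4.18 and 6.15 CPM in TKO (log2 fold change -1.94, SE 0.689, edgeR adjusted p = 0.465). DESeq2 gave an adjusted p of 0.0545 on all 9 libraries and 0.106 on the 2 groups. Without δKO replicate 1 the adjusted p was 0.292 by edgeR and 0.0236 by DESeq2, the latter chosen after seeing the data. The edgeR value was -1.26 without the unnumbered δKO library, which held the highest Bcl6 level. Txnip, an inhibitor of thioredoxin and of glucose uptake, had 52.5, 86.9 and 101 CPM in WT and 238, 98 and 122 CPM in δKO, which overlapped (log2 fold change 0.93, SE 0.389, edgeR adjusted p = 0.699). The value was 0.46 without δKO replicate 1, which held the 238 CPM.

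Profiles over the 9 libraries were compared as the root mean square difference of centred log2 CPM, in which a small value means that the profiles differ little. The measure was not scaled, so genes that vary little come out close whatever their shape. Among members, Gsk3b and Foxo3 were closest (0.25), and Pdpk1 and Foxo1, which share the high value in δKO replicate 1, were at 0.43. The root mean square of a member's own centred values was 0.24 for Gsk3b and 0.41 for Foxo3. It was 0.69 for Pdpk1 and 0.88 for Foxo1. Sgk1 and Foxo1 were farthest apart (2.49). Out of the genes whose mean reached 5 CPM, the nearest to Foxo3 were Fcho2 (0.071) and Ambra1 (0.11), the nearest to Gsk3b were Ube2d2a (0.08) and Uhrf1 (0.086), and the nearest to Akt1 were Atg13 (0.088) and Tnpo2 (0.13). Akt2 was nearest to Ldb1 and Champ1 (both 0.12), Pdpk1 to Pigk (0.13) and Ell2 (0.15), Sgk3 to Sprtn and Synrg (both 0.17) and Foxo1 to Fam84b (0.16) and Eif4a3 (0.24). For Foxo4 and Sgk1, which varied most, the nearest genes were farther, with Ccdc90b (0.32) and Klf16 (0.34) for Foxo4 and Tbcc (0.37) and Lpcat2 (0.39) for Sgk1. These values describe 9 libraries that share depth and library quality as well as genotype.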

How the data were processed

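Per the labels and the study's methods, cDNA was amplified with the Ovation RNA-Seq System V2, and the authors trimmed reads with Trim Galore 0.3.7, aligned them to mm10 with STAR 2.5.1b and deposited raw gene counts. The annotation used for counting was not given in the sources used here. The normalized table was not used. Identifiers were matched to a GENCODE annotation without version (47224 of 47643). In R 4.3.3, edgeR 4.0.16 (filterByExpr, count minimum 10, TMM factors) modelled the 9 libraries together, each genotype with its own mean, and gave two-sided quasi-likelihood tests with Benjamini-Hochberg adjustment over 18205 genes and a call at an adjusted p under 0.05. DESeq2 1.42.0, other scalings and filters, a replicate block and each library left out were alternatives. Depth was 31300343 to 60386097 counts, and SDs are over libraries. The members and lists were chosen with earlier results of these data known. Named genes were the members, their paralogues, the targeted genes, from each pathway list the 2 with the smallest p in each comparison, and for each member the 2 of most like profile. Some genes of these lists are not reported here. Figures were drawn with matplotlib 3.10.9.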

Additional observations from a re-analysis of the deposited data

How the results depend on the processing

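In each alternative run, 0 of 9 members were called in each comparison. Of the 180 member values per comparison, 10, 13 and 6 changed sign for TKO with WT, TKO with δKO and δKO with WT as the pair compared. With the number of detected genes as a covariate, TKO against WT gave -0.18 for Pdpk1 and -0.1 for Sgk3, TKO against δKO 0.035 for Akt2 and -0.029 for Sgk1, and δKO against WT -0.17 for Pdpk1 and -0.038 for Sgk3 (log2 fold changes). Upper-quartile factors moved the median of all genes by 0.14 in TKO against δKO and by -0.15 in δKO against WT, and gave 0.045 for Akt2 (TKO against δKO) and -0.0024 for Sgk3 (TKO against WT). DESeq2 without δKO replicate 1, chosen after seeing the data, gave TKO against δKO values of 0.11 (Akt2), 0.59 (Pdpk1), -0.4 (Sgk1), 0.094 (Foxo1) and -0.079 (Gsk3a), and -0.52 (Pdpk1) in δKO against WT. The replicate block gave -0.15 for Foxo4 in δKO against WT and 1.26 in TKO against WT, and 0 members were called with it. The labels' numbers did not pair the libraries (same-numbered deviations correlated at -0.0359 to 0.0829), and the unnumbered library had a level of its own in the block.

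When 1 library was left out, values that took both signs ranged as follows. In TKO against WT they ran from -0.069 to 0.31 (Akt1), -0.034 to 0.13 (Pdpk1), -0.19 to 0.27 (Sgk3) and -0.23 to 0.02 (Gsk3a). In TKO against δKO they ran from -0.24 to 0.11 (Akt2), -1.12 to 0.59 (Pdpk1), -0.39 to 0.56 (Sgk1), -1.81 to 0.099 (Foxo1) and -0.065 to 0.54 (Gsk3a). In δKO against WT they ran from -0.54 to 1.17 (Pdpk1) and -0.018 to 0.87 (Foxo4). Of the 27 member values, 26 moved by more than 1.5 times or changed sign when some library was left out, and of 28 values of other pathway genes 12 did, with 0 changes of sign.

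Over all genes, calls rose from 1, 0 and 1 (edgeR, in the same order) to 125, 559 and 194 with DESeq2 on all libraries, 639, 269 and 197 with DESeq2 on 2 groups, and 390, 894 and 160 with DESeq2 without δKO replicate 1, and edgeR on 2 groups called 9, 0 and 0. The cause of these differences was not tested. With counts not divided by length, the longer paralogues took larger shares (Sgk3 66.2% in WT), and Foxo4 took 4.87% in WT and 9.62% in TKO. The SE in TKO against WT was 0.543 to 0.88 for Pdpk1, Foxo4, Foxo1 and Sgk1 and 0.233 to 0.333 for the other members. Without δKO replicate 1 it was 0.208 for Pdpk1, 0.291 for Foxo1, 0.413 for Foxo4 and 0.45 for Sgk1.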
